A study of Mus musculus with 2 samples.

Results

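Penk encodes proenkephalin, and it is described here in the CD8 T cells of aged mouse spleen and in young CD8 T cells that had been transferred into aged hosts. The gene was taken by its symbol, which named 1 of the 31053 features of each library, and it had been chosen because earlier results on these libraries had shown it to be high in some cells. Its levels are therefore a description, and none was tested. Penk (ENSMUSG00000045573) is a protein-coding gene on the minus strand of chromosome 4, from 4133531 to 4138819 in mm10, with 2 annotated transcripts and 5 distinct exons.

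Proenkephalin is a secreted precursor that is cut by prohormone convertases into the opioid peptides Met- and Leu-enkephalin, which bind the delta and mu opioid receptors. It is best known from neurons and adrenal chromaffin cells, but mouse T cells also transcribe it, among them activated and regulatory T cells. Gzmk, which encodes granzyme K, together with the inhibitory receptor PD-1 (Pdcd1) and the chemokine CCL3 (Ccl3), marks a CD8 T cell state that accumulates in aged mice.

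The old recipient library held CD45.2+ CD3e+ CD8a+ spleen cells of wild-type CD45.2 C57BL/6J hosts, which were 24 months old at transfer and 25 months old at harvest. The young donor library held CD45.1+ CD3e+ CD8a+ cells from the spleens of such hosts, 1 month after total CD8 T cells of CD45.1 C57BL/6J mice aged 3 months had been given to them. Age of the cells, transfer and CD45 strain, which all differ between the libraries, cannot be told apart. There was 1 droplet library per population, and the labels did not say how many mice went into each. After filtering, 5341 recipient cells with 38866395 UMIs and 7451 donor cells with 60355096 UMIs were kept. Median depths were 7083 UMIs per recipient cell and 8006 per donor cell. Levels are CPM, that is UMIs summed over a set of cells and scaled by the total of the same cells, ratios are on the log2 scale, and all intervals are exact 95% intervals that cover counting error only. UMIs of Penk lay clumped in a few cells, so these intervals understate the spread between cells or mice. The libraries shared 105 cell barcodes. Of the Penk cells, 2 in the recipient and 0 in the donor had such a barcode, and the ratio of Penk levels given below was 3.77 with and without the shared barcodes.

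Penk was rare in both libraries and far more abundant in old recipient cells. The recipient library held 369 Penk UMIs in 93 cells, and the donor library held 42 Penk UMIs in 26 cells. That was 9.49 CPM (8.55 to 10.5) in the recipient and 0.696 CPM (0.502 to 0.941) in the donor, and recipient over donor the log2 ratio was 3.77 (3.31 to 4.27), or 13.6-fold. Cells with at least 1 Penk UMI, called Penk cells here, made up 1.74% (1.41 to 2.13) of recipient cells and 0.349% (0.228 to 0.511) of donor cells. With every cell thinned to 3500 UMIs, the shares were 62 of 4892 recipient cells (1.27%) and 13 of 7070 donor cells (0.184%). Thinning left out 449 recipient cells, 20 of them with Penk, and 381 donor cells, 6 of them with Penk. Penk cells were shallower than the others, with medians of 4440 UMIs in Penk cells and 7126.5 in other cells of the recipient, and of 4979.5 and 8012 in the donor. A low share of cells with a UMI can come from free RNA. In the naive-like clusters, which should lack Penk, 2 of 1833 recipient cells (0.109%) and 1 of 1129 donor cells (0.0886%) had a Penk UMI, at 0.143 and 0.111 CPM and at median depths of 7497 and 7837 UMIs.

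The number of Penk UMIs per cell was uneven. In the recipient, 50 of the 93 Penk cells had 1 UMI, 14 had 2, 16 had 3 to 5, and 13 had 6 or more. Those 13 cells held 234 of the 369 UMIs, and the 3 highest cells had 54, 45 and 28 UMIs, together 34.4% of the total. In the donor, 18 of the 26 Penk cells had 1 UMI, 7 had 2, and 1 cell had 10. The highest recipient cell had a total depth of 5467 UMIs, below the recipient median, and the second highest had 10747. Without the 3 highest cells of each library Penk stood at 6.23 CPM in the recipient and 0.464 CPM in the donor, and the log2 ratio was 3.75 (3.18 to 4.37).

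**Figure D1:**
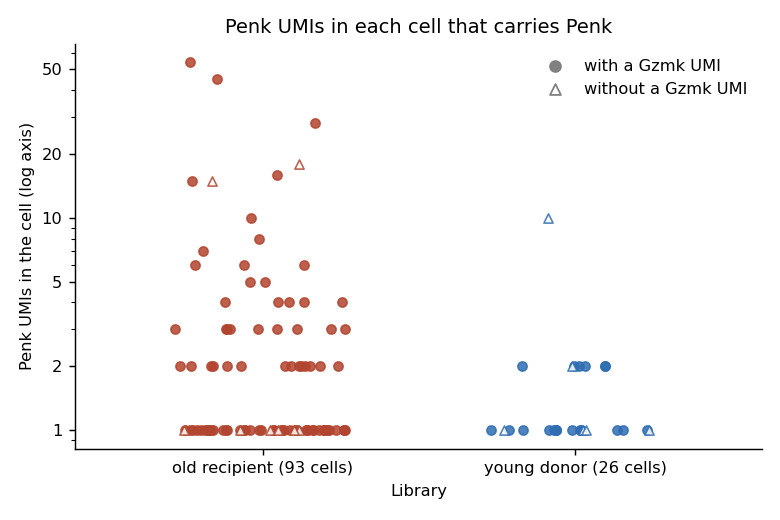
Penk UMIs (y axis, log scale) in each Penk cell of the old recipient library and of the young donor library, 1 point per cell, with filled circles for cells with a Gzmk UMI and open triangles for cells without. The recipient has 13 cells at 6 or more UMIs and a maximum of 54, and the donor has 1 such cell, at 10 UMIs and without Gzmk.

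Most Penk cells of both libraries carried Gzmk, most of those in the recipient also carried Pdcd1, and Ccl3 was found in a minority. Gzmk was found in 85 of 93 recipient Penk cells (91.4%, 83.8 to 96.2), against 20.8% of the recipient cells without Penk. In the donor it was found in 20 of 26 Penk cells (76.9%, 56.4 to 91.0), against 14.7% of the cells without Penk. Pdcd1 was found in 51 recipient Penk cells (54.8%) and in 6.80% of the recipient cells without Penk, but in the donor the corresponding values were 4 Penk cells (15.4%, 4.36 to 34.9) and 4.44%. For Ccl3 there were 38 recipient Penk cells (40.9%), against 5.68% of the others, and 5 donor Penk cells (19.2%, 6.55 to 39.4), against 3.43% of the others. All 3 genes were found together in 28 recipient Penk cells (30.1%) and in 2 donor Penk cells (7.69%). Recipient cells with 3 or more Penk UMIs, of which there were 29, had Gzmk in 93.1%, Pdcd1 in 69.0% and Ccl3 in 51.7%.

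Seen from the other side, Gzmk cells of the recipient had 52.0 CPM of Penk (46.6 to 58.0) with 7.21% of 1179 cells carrying it, and Gzmk cells of the donor had 4.44 CPM (2.90 to 6.51) with 1.81% of 1108 cells. The log2 ratio within Gzmk cells was 3.55 (2.97 to 4.19), at nearly the same median depth of 4605 UMIs in recipient and 4557.5 in donor Gzmk cells. Among recipient Gzmk cells, Penk stood at 156 CPM where Pdcd1 and Ccl3 were both found, with 28 of 138 cells carrying it. It stood at 92.6 CPM with Pdcd1 alone (23 of 202 cells), at 74.2 CPM with Ccl3 alone (10 of 171 cells) and at 11.8 CPM with neither (24 of 668 cells). The intervals of the last group (8.49 to 15.9 CPM) and of the first (129 to 187 CPM) lay far apart. In the donor the same 4 groups had 5.15, 1.84, 3.15 and 5.34 CPM, with overlapping intervals and 2, 2, 2 and 14 Penk cells, so no order could be read at this depth. Pdcd1 or Ccl3 without Gzmk went with no Penk UMI in the recipient, in 5 cells with both, 63 with Pdcd1 only and 22 with Ccl3 only. The interval for the 63 cells reached 7.47 CPM.

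**Figure D2:**
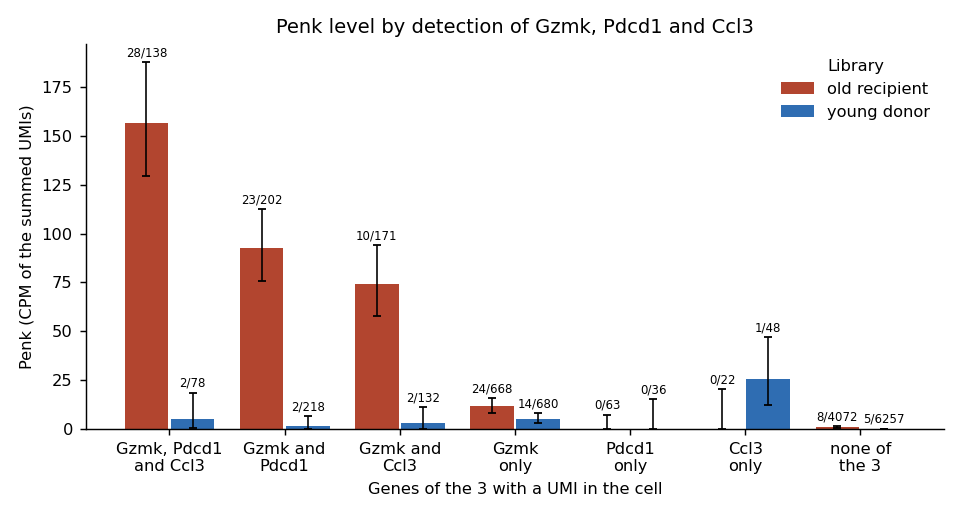
Penk level in CPM of summed UMIs (y axis) in cells grouped by which of Gzmk, Pdcd1 and Ccl3 had a UMI (x axis), for the old recipient and the young donor, with 95% Poisson intervals and the number of Penk cells over all cells of the group above each bar. The recipient level is highest with all 3 genes (156 CPM), and the tallest donor bar, for Ccl3 only (25.6 CPM), is the single cell with 10 UMIs. The 5 recipient and 2 donor cells with Pdcd1 and Ccl3 but no Gzmk, all without Penk, are not drawn.

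Penk without Gzmk was uncommon. The recipient had 8 such cells with 39 UMIs (1.20 CPM over all cells without Gzmk), and the donor had 6 with 16 UMIs (0.294 CPM). Of the recipient UMIs, 18 came from 1 cell in the immediate early-like cluster 6 and 15 from 1 cell in the regulatory T-like cluster 4, and the other 6 cells had 1 UMI each. The 15-UMI cell had no UMI of the coreceptor genes Cd8a and Cd8b1 and carried 3 of Cd3e, and the 18-UMI cell had 2 of Cd8b1. The donor's 10-UMI cell had no Gzmk or Pdcd1 but had 1 UMI of Ccl3 and 23 of Ccl4. Cd3e was found in all 93 recipient and all 26 donor Penk cells, whereas Cd4, Foxp3, Trdc and Fcer1g, which mark helper, regulatory, gamma delta and innate-like lymphocytes, were at 0 in every Penk cell of both libraries. They were also rare in recipient and donor cells without Penk. Cd4 was in 0 of 5248 and 2 of 7425 of them, Foxp3 in 0.705% and 0.215%, Trdc in 0.877% and 0.943%, and Fcer1g in 3.24% and 0.660%. The intervals for 0 reached 3.89% of recipient and 13.2% of donor Penk cells, above each of these shares, so the zeros do not set Penk cells apart.

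By cluster, Penk was concentrated in cluster 13. Penk itself was kept out of the clustering of the 2 libraries, which gave 14 clusters. Cluster 13 carried the markers of an age-associated-like state and was led by Ccl3, Ccl4, Lag3, Pdcd1, Rgs1, Maf, Rgs16, Tigit and Gzmk, and by Penk. In the recipient it held 250 cells, 54 of them with Penk (21.6%), and 283 Penk UMIs, which was 76.7% of the total. In the donor it held 193 cells, 9 of them with Penk (4.66%), and 21 UMIs, which was 50.0% of the total. The level in cluster 13 was 269 CPM (238 to 302) in the recipient and 27.2 CPM (16.9 to 41.6) in the donor, and the log2 ratio was 3.30 (2.66 to 4.02). In the same cluster Pdcd1 stood at 263 CPM in the recipient and 220 CPM in the donor, Gzmk at 1464 and 1422 CPM, and Ccl3 at 898 and 314 CPM. Finer clustering, at resolution 1.5, gave a cluster 18 in which 41 of 105 recipient cells and 0 of 73 donor cells had Penk, at 486 recipient CPM and 0 donor CPM (interval to 16.1). Pdcd1 there stood at 454 CPM in the recipient and 495 CPM in the donor, Gzmk at 1656 and 1550 CPM, and Ccl3 at 1971 and 722 CPM.

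The larger age-associated-like cluster 12, led by Gzmk, Tigit and Ier3, had 730 recipient cells with 11.3 CPM of Penk (8.12 to 15.2) and 740 donor cells with 3.57 CPM (1.90 to 6.10). Its Gzmk level was 1144 CPM in the recipient and 972 CPM in the donor. Clusters 7 to 10, among them the effector memory-like cluster 8 with 347 CPM of Gzmk in the recipient and 409 CPM in the donor, held no Penk UMI in either library. The intervals in cluster 8 reached 5.33 CPM over its 183 recipient cells and 10.7 CPM over its 96 donor cells.

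**Figure D3:**
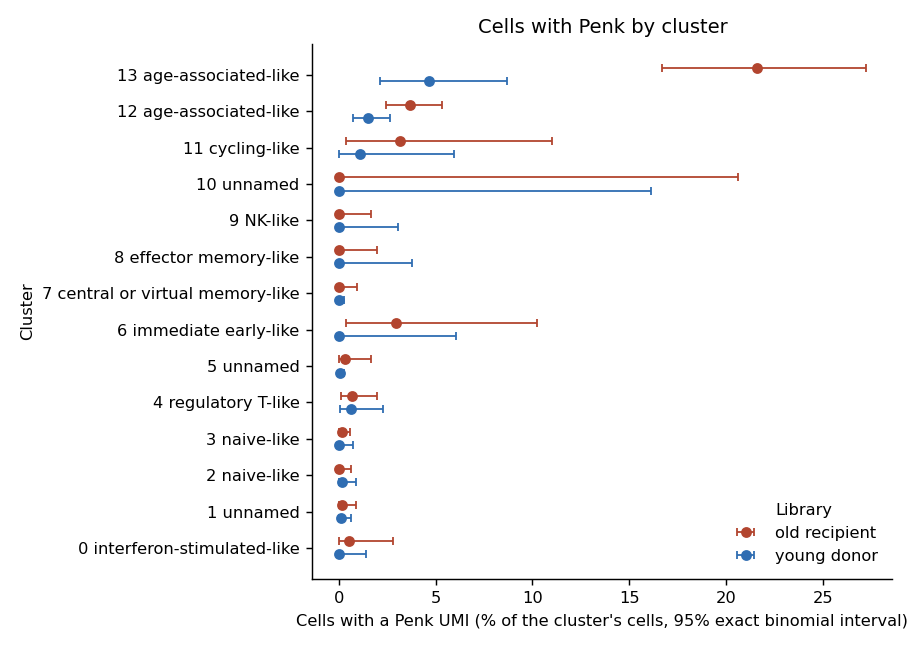
Cells with a Penk UMI as a percentage of the cluster's cells (x axis) for each of the 14 clusters (y axis), in the old recipient and below it the young donor, with exact binomial intervals. Cluster 13 stands at 21.6% in the recipient and 4.66% in the donor, and no other cluster exceeds 3.70% in either library.

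The V segments of a rearranged T cell receptor are passed on to a cell's offspring, so cells of 1 clone share them, though cells of different clones can share them too. They were read as the Trbv and the Trav segment with most UMIs in a cell, and receptor sequences were not analysed here. In the recipient, Trbv5 (chromosome 6, 41062332 to 41062803) led with 137 Penk UMIs (37.1%) in 36 cells, followed by Trbv1 with 64 UMIs in 9 cells and Trbv14 with 53 UMIs in 5 cells. In the donor, Trbv17 (chromosome 6, 41163062 to 41163556) led with 15 UMIs (35.7%) in 5 cells, 10 of them in 1 cell, and Trbv12-1 and Trbv4 had 5 UMIs each. Penk cells still used 15 distinct Trbv segments in the recipient and 10 in the donor. Of the 16 Trbv segments with at least 20 recipient Gzmk cells, 13 had a Penk cell. The share of their Gzmk cells with Penk had a median of 4.77% and reached 33.3% for Trbv5 and 20.8% for Trbv13-1. Of 12 such segments in the donor, 8 had a Penk cell, with a median of 1.90% and a highest share of 5.77% for Trbv4.

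On the alpha side Trav12-2 (chromosome 14, 53616315 to 53616914) led in the recipient with 187 UMIs (50.7%) in 39 cells, followed by Trav8n-2 with 56 UMIs. Donor Penk cells had no dominant Trav segment, since Trav7-6 led with 5 UMIs in 3 cells. No Trav call was possible for 18 recipient and 9 donor Penk cells. Near-identical copies of Trav12-2 exist in the mouse genome, and the copies Trav12d-2 and Trav12n-2 had 17 and 24 UMIs over the recipient library, against 1436 of Trav12-2. In the recipient cells that carried both Trbv5 and Trav12-2 there were 332 UMIs of Trav12-2 and 0 of either copy. How the counting treated reads that match several copies is not given in the sources used here.

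In the recipient, 35 of the 36 Trbv5 Penk cells also carried Trav12-2. This pair of segments was found in 82 recipient cells, of which 73 had Gzmk and 35 had Penk (42.7%, 31.8 to 54.1). These 35 cells held 136 Penk UMIs, 36.9% of the recipient total, at 380 CPM (319 to 450) over the 82 cells. Of the recipient cells with Trbv5 and another Trav segment, 0 of 156 had Penk, which allows a share of up to 1.92%, and 27 of them had Gzmk. Of those with Trav12-2 and another Trbv segment, 4 of 217 had Penk, with 51 UMIs, 45 of them in 1 cell. The donor library held 11 cells with Trbv5 and Trav12-2, of which 0 had Gzmk and 0 had Penk, which allows a share of up to 27.3%. The pair is a pair of V segments and not a sequenced clonotype, so how many clones it held is not known.

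Within the pair, Penk was not found in every cell. Of the 35 Penk cells, 16 had 1 UMI, 3 had 2, 9 had 3 to 5 and 7 had 6 or more, with 28 as the highest. Of the 47 pair cells in cluster 13, 30 had Penk (63.8%), whereas of the 24 in cluster 12, 5 had it (20.8%). Outside the pair the same contrast held at lower shares, with 24 of 203 recipient cells in cluster 13 (11.8%) and 22 of 706 in cluster 12 (3.12%). Recipient Gzmk cells outside the pair had Penk in 50 of 1106 cells (4.52%) at 32.1 CPM (27.7 to 36.9), against 4.44 CPM in donor Gzmk cells, a log2 ratio of 2.85 (2.26 to 3.50). Leaving out Trbv5 and Trbv17 in both libraries gave 3.77 (3.19 to 4.40) over all cells, leaving out Trav12-2 and Trav7-6 gave 2.93 (2.41 to 3.48), and leaving out both Trbv segments and the 3 highest cells of each library gave 3.19 (2.55 to 3.90). The recipient was thus higher under each of these removals. The ratio was smaller without Trav12-2 and Trav7-6, and smaller without the pair among Gzmk cells, where it was 3.55 with the pair kept. Without Trbv5, which takes the pair along, and Trbv17 it stayed at 3.77 over all cells. That removal lowered the recipient from 9.49 to 6.52 CPM and the donor from 0.696 to 0.480 CPM.

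The next highest recipient segments by UMIs, Trbv1 and Trbv14, ranked there through single cells. By cells, Trbv14 had Penk in 5 of its 17 recipient Gzmk cells (29.4%, 10.3 to 56.0). With fewer than 20 Gzmk cells, it was not among the segments whose shares were summarized above. Trbv1 with Trav8n-2 had 56 UMIs in 3 of 15 recipient cells, 54 of them in 1 cell, and Trbv14 with Trav12-2 had 50 UMIs in 3 of 16 cells, 45 of them in 1 cell. By contrast Trbv13-1 had 26 UMIs spread over 13 recipient cells, with at most 6 in a cell. In the donor, Trbv4 with Trav7-6 had 5 UMIs in 3 of 40 cells, and Trbv3 with Trav7-4 had 3 UMIs in 3 of 29 cells.

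The genes that accompanied Penk were sought among Gzmk cells, where 85 recipient and 20 donor Penk cells were set against 1094 and 1088 Gzmk cells without Penk. With 1 library per population genes were named by size, with 5 CPM added to both levels before the log2 ratio, and intervals are those of the ratio without the added CPM. Among 5486 recipient genes measured well enough, 1.59% had a log2 ratio of 1 or more and 1.31% a ratio of -1 or less. Among 6028 donor genes these shares were 7.86% and 8.58%, on only 20 Penk cells.

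Over all kept cells, where Penk cells also differ from the rest in cell type, the 6 highest recipient genes were Ccl4 (2676 CPM in Penk cells and 75.6 CPM in cells without Penk, log2 ratio 5.06), Ccl3 (4.93), Rgs16 (4.13), Lag3 (4.13), Pdcd1 (3.86) and Tigit (3.63). There 6.01% of genes were past the threshold upwards and 2.29% downwards in the recipient, and 9.59% and 5.07% in the donor.

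Among Gzmk cells, the 12 highest recipient genes included 3 chemokine genes. Rgs16, a regulator of G protein signalling, had 150 CPM in Penk cells and 15.4 CPM in Gzmk cells without Penk, a log2 ratio of 2.92. Ccl4, a chemokine, had 2967 and 393 CPM (2.90), Xcl1, a chemokine for cross-presenting dendritic cells, 639 and 87.8 CPM (2.80), and Ccl3 975 and 147 CPM (2.69). Of the 282 Xcl1 UMIs in Penk cells 138 lay in 1 cell, without which its ratio was 1.89. Of the 1309 Ccl4 UMIs 1 Penk cell held 273 and another 205, and these cells had 2 and 3 Penk UMIs. The cell with most Penk UMIs, 54, had 3 UMIs of Ccl4. The ratios therefore do not show that these levels rise with Penk from cell to cell. Csf1, the macrophage growth factor, had 43.1 and 1.86 CPM (2.81), and Prss2, a trypsin gene, 109 and 11.4 CPM (2.80). The inhibitory receptor TIM-3 gene Havcr2 had 61.2 and 7.46 CPM (2.41), and Tbc1d4, a Rab GTPase-activating protein gene, 83.9 and 14.4 CPM (2.20). Sept4, Susd2, the adhesion receptor gene Adgrg1 and the receptor phosphatase gene Ptprk completed the 12 highest with ratios of 2.53, 2.45, 2.39 and 2.26. Gzmk itself differed little, with 1464 CPM in Penk cells and 1064 CPM in the other Gzmk cells.

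Of the 6 lowest recipient genes, Ly6c2, which encodes a surface antigen of memory CD8 T cells, had 72.5 CPM in Penk cells and 431 CPM in the others (-2.49), and Il18r1, a subunit of the interleukin-18 receptor, had 13.6 and 68.0 CPM (-1.97). Ifngr1, the ligand-binding chain of the interferon gamma receptor, had 70.3 and 217 CPM (-1.56). Acat1 had a ratio of -1.72 on 5 UMIs in Penk cells, and Yy1 (-1.70, interval -4.58 to -0.72) and Gas7 (-1.69, interval -4.57 to -0.71) had 3 UMIs each.

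The donor shared the direction for part of these genes. Tbc1d4 was the highest donor gene, with 111 CPM (11 UMIs in 5 of 20 cells) against 14.1 CPM, a log2 ratio of 2.60. Xcl1 had 251 and 94.9 CPM (1.36), Il18r1 10.1 and 84.3 CPM (-2.57, on 1 UMI with an interval of -8.37 to -0.58) and Ifngr1 80.4 and 199 CPM (-1.26). Ly6c2 had 231 and 416 CPM (-0.83, interval -1.51 to -0.26), on 23 UMIs in 3 donor Penk cells. By contrast, donor levels in Penk cells and other Gzmk cells were 241 and 232 CPM for Ccl4, 111 and 86.4 CPM for Ccl3 and 90.5 and 75.1 CPM for Pdcd1, with log2 ratios of 0.06, 0.34 and 0.25 and intervals that included 0. Whether the libraries differ in these ratios was not tested. The recipient values moved with Trbv5, since without the cells of that segment Ccl4 had a ratio of 1.67, Ccl3 1.20, Adgrg1 1.11 and Tbc1d4 1.02. Rgs16, Csf1, Prss2 and Ptprk had 0 UMIs in the 20 donor Penk cells with Gzmk. There 0 allows up to 30.2 CPM, above their levels in the other donor Gzmk cells, so no direction could be read. The other high donor genes were Daglb (2.57), a diacylglycerol lipase gene, and Disp1 (2.07), Ccdc28b (2.05), Kctd3 (2.05) and Ulk2 (2.01), on 3 to 8 UMIs each, and for Ccdc28b and Kctd3, on 3 UMIs, the interval was 0.72 to 4.87. Tmc6, Dapl1 and Gramd3 had 0 UMIs in donor Penk cells with Gzmk and 73.0, 70.4 and 63.8 CPM in the other donor Gzmk cells. The upper ends of their log2 ratio intervals were -0.97, -0.92 and -0.78. The histone gene Hist1h2ap had 10.1 and 219 CPM (-3.89, interval -9.75 to -1.96), on 1 UMI in Penk cells with Gzmk.

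**Figure D4:**
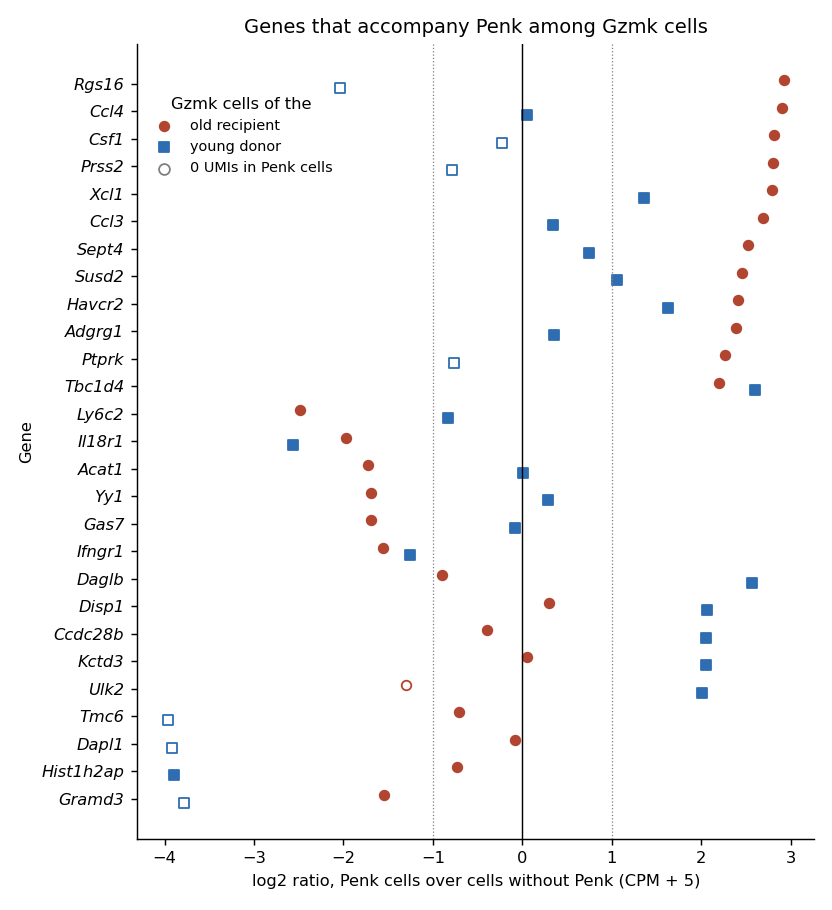
Log2 ratio (x axis, 5 CPM added) of Penk cells over cells without Penk among the Gzmk cells of the old recipient (circles) and young donor (squares), for the genes named by rule (y axis), with dotted lines at -1 and 1 and open symbols where Penk cells had 0 UMIs, whose position is set by the CPM added. Tbc1d4 lies past 2 in both libraries, but without Trbv5 cells its recipient ratio was lower than those of Ccl4 and Ccl3. Its donor value rests on 11 UMIs in 5 cells. Ccl4 and Ccl3 lie past 2 in the recipient, where they were 1.67 and 1.20 without Trbv5 cells, and near 0 in the donor.

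Beside the gene lists that follow, 1.59% of all recipient genes passed the threshold upwards and 1.31% downwards. In the donor 7.86% and 8.58% did, so 1 donor gene past it does not set a short list apart. Of 7 chemokine and cytokine genes measured, 5 had a log2 ratio of 1 or more in recipient Gzmk cells, with a median of 2.69 against 0.05 over all genes. They were Ccl4, Csf1, Xcl1, Ccl3 and Ifng (1.37), while Ccl5, at 39999 and 30068 CPM, had 0.41. In the donor 2 of 7 passed, Xcl1 and Lta (1.20, on 2 UMIs with an interval of -1.34 to 3.73), with a median of 0.09 against 0.09 over all genes. Of 7 inhibitory receptor genes, 5 passed in the recipient with a median of 1.37, and they were Havcr2, Lag3 (526 and 113 CPM, 2.17), Pdcd1 (288 and 71.7 CPM, 1.93), Tigit (499 and 190 CPM, 1.37) and Entpd1 (1.33), while Cd160 had 0.05. In the donor 1 of 6 passed, and it was Cd160 (111 and 42.8 CPM, 1.27). Of 11 transcription factor genes tied to exhaustion, 5 passed in the recipient, namely Maf (1.97), Ikzf2 (1.82), Nr4a2 (1.67), Prdm1 (1.20) and Batf (1.03), and Tox (358 and 177 CPM) lay just under the threshold. In the donor 1 of 9 passed, and it was Maf (80.4 and 25.2 CPM), while Tox had 141 and 201 CPM.

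Of 5 genes of the T cell receptor response, 2 passed in the recipient, Tnfrsf9 (145 and 31.4 CPM, 2.05) and Nr4a2, and 0 in the donor, where Tagap had a ratio of -2.16 on 1 UMI (interval -7.94 to -0.14). Of 11 regulators known from Penk transcription in other cells, such as AP-1 and CREB members, 1 passed in each library, Batf in the recipient and Creb1 (1.08) in the donor, with medians of 0.01 and 0.21. Cytotoxic granule genes had 0 of 9 past the threshold upwards in either library, and Gzmm (-1.51) passed downwards in the recipient and Gzmb (-1.10) in the donor. Of 9 naive and stem-like genes, 0 passed upwards in the recipient and Il7r (-1.46) passed downwards, with a median of -0.73. In the donor Id3, a transcriptional regulator of memory precursors, had 322 and 84.8 CPM (1.86), and the median of 10 genes was -0.36. General memory genes had 3 of 9 past the threshold downwards in the recipient, Tbx21 (-1.31), Il18r1 and Ly6c2, and 1 of 9 in the donor, Il18r1.

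Effector memory genes passed upwards in 0 of 7 in both libraries. Downwards, 1 passed in the recipient, S100a4 (-1.47), and 3 in the donor, S100a6 (-1.56), Cx3cr1 (-1.32, on 2 UMIs, interval -4.57 to 0.35) and Zeb2 (-1.09, on 1 UMI, interval -6.74 to 1.07). Of the 2 residency genes measured, Rgs1 passed in the recipient (501 and 116 CPM, 2.06) and had 221 and 119 CPM (0.87) in the donor. Among costimulatory genes 1 of 5 passed in the recipient, Tnfrsf9, and 2 of 6 in the donor, Tnfrsf4 (1.45, on 2 UMIs, interval -0.86 to 4.28) and Icos (1.13). Natural killer receptor genes had 0 of 4 past the threshold upwards in both libraries, and Klre1 (-1.18, on 3 UMIs, interval -3.60 to 0.24) passed downwards in the donor, while of 3 cell cycle genes measured in each library 0 passed.

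Of 6 markers of regulatory T cells, 3 were measured well enough in the recipient and 4 in the donor. Of these, 2 passed the threshold upwards in each library, against 1.59% of all recipient and 7.86% of all donor genes. The part of the 6 markers in the results was not tested. Their summed level among Gzmk cells was 306 CPM in Penk cells and 103 CPM in the others in the recipient, and 171 and 65.9 CPM in the donor. Foxp3 and Il2ra, which encode the defining factor and receptor, were at 0 in Penk cells of both libraries. Foxp3 was also rare in cells without Penk, at 0.705% of recipient and 0.215% of donor cells. Izumo1r, the folate receptor 4 gene, had 52.1 and 15.9 CPM in the recipient (1.45) and 70.4 and 15.8 CPM in the donor (1.86), and Ikzf2, which encodes Helios, had 161 and 41.9 CPM in the recipient and 30.2 and 15.1 CPM in the donor (0.80, on 3 UMIs, interval -1.31 to 2.59). Of a wider list of genes linked to regulatory T cells, 2 of 4 passed upwards in the recipient, Ikzf2 and Izumo1r, and 2 of 5 in the donor, Izumo1r and Tnfrsf4. Among all kept cells, markers of CD4 T cells summed to 2.04 CPM in Penk cells and 2.79 CPM in the others in the recipient, and to 0 and 2.09 CPM in the donor. B cell markers summed to 61.3 and 184 CPM in the recipient and to 111 and 162 CPM in the donor. Stromal and platelet markers were at 0 in all Penk cells and reached only 0.648 CPM in the others. Natural killer markers summed to 98.1 and 51.5 CPM in the recipient and 26.1 and 28.2 CPM in the donor, and myeloid markers, mostly Cst3, to 176 and 102 CPM and to 117 and 97.7 CPM.

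The recipient Gzmk cells were next split by the V segment pair and by Penk. For some genes, levels were higher with Penk both inside and outside the pair. Rgs16 had 293 CPM in the 35 pair cells with Penk and 40.7 CPM in the 38 pair cells without (log2 ratio 2.85, 1.61 to 4.37), and 80.5 and 14.8 CPM outside the pair (2.45, 1.73 to 3.11). Ccl4 had 7028 and 1738 CPM inside (2.02, 1.82 to 2.22) and 1017 and 358 CPM outside (interval 1.33 to 1.68). Outside the pair 1 cell held 109 of its 303 UMIs, and without that cell Penk cells had 665 CPM and the ratio was 0.89 (0.67 to 1.10). Another cell there held 108 UMIs, and the ratio without both cells was not computed. The Ccl4 level outside the pair thus rests largely on these cells. Inside the pair 1 cell held 273 of 1006 UMIs and another held 205. Pdcd1 had 622 and 326 CPM inside (0.93, 0.41 to 1.47) and 128 and 65.2 CPM outside (0.97, 0.45 to 1.45). For these 3 genes each interval stayed above 0 when the Penk cell with most UMIs of the gene was left out on either side, where the lowest bound was 0.26, for Pdcd1 inside the pair. Tigit (0.92 inside and 0.83 outside) and Tox (0.75 and 0.65) also kept intervals above 0 under that removal. The genes of this split were chosen with their values known, and the intervals cover counting error only. An interval above 0 is therefore a description here and not a test.

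For the next genes, leaving out 1 cell gave an interval that included 0 either inside or outside the pair. Ccl3 had 2459 and 577 CPM inside the pair (2.09, 1.75 to 2.45), although it was found in 60.0% of the Penk cells and 63.2% of the cells without Penk there. Outside the pair Ccl3 had 262 and 136 CPM (0.95, 0.59 to 1.28), and without 1 cell that held 25 of 78 UMIs the ratio was 0.42 (-0.01 to 0.82). Xcl1 had 531 and 61.1 CPM inside the pair (3.12) and 691 and 88.5 CPM outside it (2.97), but 1 cell held 59 of its 76 UMIs in Penk cells inside and another held 138 of 206 outside. Without them the ratios were 1.01 (-0.24 to 2.35) inside and 1.45 (1.06 to 1.81) outside. Tbc1d4 had 189 and 34.0 CPM inside (2.47, 1.08 to 4.21) and 33.6 and 13.9 CPM outside (1.27, 0.16 to 2.22), where leaving out 1 cell gave 0.97 (-0.29 to 2.01). Ikzf2 had 321 and 122 CPM inside (1.39, 0.58 to 2.27) and 83.9 and 39.8 CPM outside (1.08, 0.42 to 1.67), where leaving out 1 cell gave 0.68 (-0.10 to 1.37).

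For a further set of genes, levels were high in pair cells whether or not Penk was found. Sept4 had 119 CPM in pair cells with Penk and 115 CPM in pair cells without (0.04, -1.02 to 1.10), against 3.30 CPM in the 1056 Gzmk cells with neither the pair nor Penk, and the 50 Penk cells outside the pair had 30.2 CPM. Adgrg1 had 168 and 129 CPM inside the pair (0.38, -0.55 to 1.33) and 5.39 CPM in those 1056 cells, and Havcr2 had 147 and 88.3 CPM inside (0.73, -0.33 to 1.85) and 5.39 CPM. Prss2 had 272 and 149 CPM inside (0.87, 0.08 to 1.69) and 7.82 CPM, and Csf1 had 112 and 61.1 CPM inside (0.87, -0.39 to 2.23) and 0.35 CPM. For these 5 genes the log2 ratio of pair cells without Penk over other Gzmk cells without Penk lay between 4.03 for Havcr2 (2.98 to 5.01) and 7.46 for Csf1 (5.19 to 10.7). Outside the pair they were also higher with Penk, on 3 to 9 UMIs each. The ratios there were 4.86 for Csf1, 3.19 for Sept4, 1.95 for Prss2, 1.90 for Havcr2 and 1.64 for Adgrg1. Without the Penk cell with most UMIs of the gene, Sept4 had 2.36 (0.59 to 3.83), and the intervals of the others included 0. Lag3 had 964 and 733 CPM inside the pair (0.39, 0.02 to 0.77) and 315 and 97.4 CPM outside it (1.70, 1.37 to 2.01). Without the Penk cell with most Lag3 UMIs the ratio was 0.27 (-0.11 to 0.66) inside and 1.37 (0.99 to 1.73) outside. A pair cell without a Penk UMI may still transcribe the gene below detection, which was not tested.

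**Figure D5:**
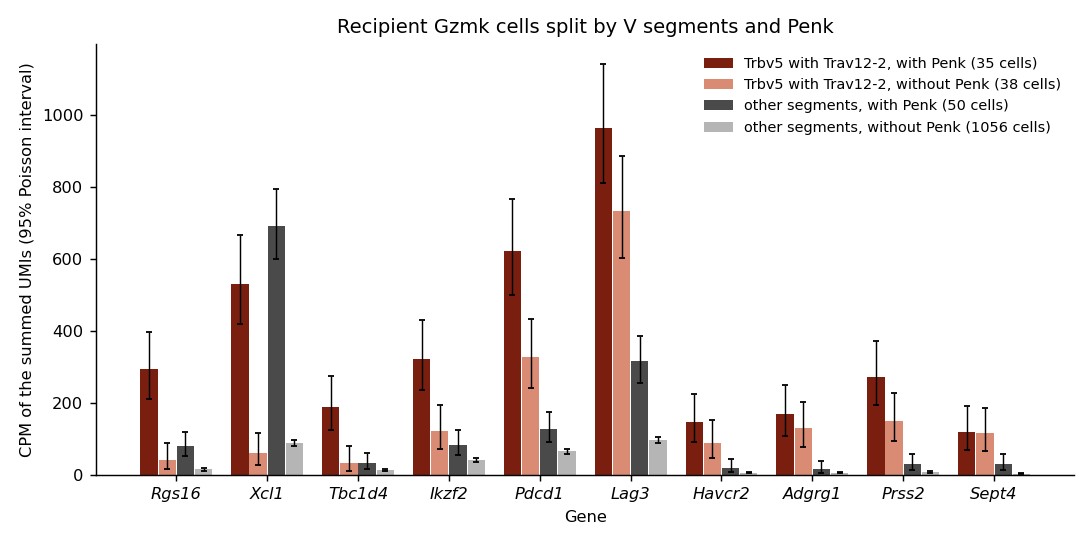
CPM of summed UMIs (y axis, 95% Poisson intervals) of 10 genes (x axis) in old recipient Gzmk cells split by the V segment pair Trbv5 with Trav12-2 and by Penk. Rgs16 and Pdcd1 are higher with Penk on both sides of the split, the tall Xcl1 bars rest on 1 cell each (59 of 76 and 138 of 206 UMIs), and Sept4, Adgrg1 and Havcr2 are high in the pair with and without Penk.

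Over clusters, the genes most like Penk were Chst2, a sulfotransferase gene, Cacna1s, a calcium channel subunit gene, Reep2, Coch, Phactr2 and Adgrg1. Likeness was the mean over both libraries of Pearson's r of log2(CPM + 5) over the 13 clusters with at least 50 cells, and it was 0.96 for Chst2 and between 0.92 and 0.93 for the others. The clusters share the library and were defined on other genes of the same cells, so these values are descriptions. Cluster 13 weighed heavily, since without it r over 12 clusters in the recipient was 0.82 for Chst2, 0.90 for Reep2 and 0.94 for Phactr2 but 0.42 for Cacna1s, 0.20 for Coch and 0.25 for Adgrg1. In the donor it stayed between 0.81 and 0.97 for these 6 genes. However, donor Penk outside cluster 13 was 3.57 CPM in cluster 12 and at most 1.61 CPM in any other, below the 5 CPM added. Spearman's rho over the 13 clusters was lower than r for each of the 6 genes. It lay between 0.40 and 0.89 in the recipient and between 0.46 and 0.78 in the donor, lowest for Adgrg1 in both. Gzmk had a mean r of 0.57, Pdcd1 0.81 and Ccl3 0.75.

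Several genes specific to opioid peptides were at or near 0 in both libraries, but Pomc was not. Among the other opioid precursors, Pomc, the precursor of beta-endorphin, stood at 2.96 CPM in the recipient and 2.49 CPM in the donor. It had 115 UMIs in 112 of 5341 recipient cells and 150 UMIs in 148 of 7451 donor cells. None of these had Penk, but with both genes this rare the missing overlap cannot be read as a result. Pdyn had 0 UMIs in both libraries. Pnoc had 1 and 9 UMIs. The receptor genes Oprd1 (delta), Oprk1 (kappa) and Ackr3, an atypical enkephalin-binding receptor, had 0 UMIs in both libraries, which allows up to 0.0772 CPM in the recipient and 0.0497 CPM in the donor, and Oprm1 (mu) had 4 and 8 UMIs. The convertase genes that cut proenkephalin in neuroendocrine cells were at or near 0, with 17 and 12 UMIs of Pcsk1 and 0 of Pcsk2, and carboxypeptidase E (Cpe) had 2 and 0 UMIs. Other convertases were present, with 7.67 and 7.64 CPM of Furin in the recipient and donor, 17.3 and 17.5 CPM of Pcsk7 and 7.82 and 11.2 CPM of Pcsk4. The cathepsin L gene Ctsl, also counted here among the processing genes, had 9.37 and 5.43 CPM. Among Gzmk cells, 0 of 1 processing gene measured passed the threshold with Penk in the recipient and 1 of 2 in the donor, Pam (1.27, on 2 UMIs, interval -1.21 to 3.87), and of 2 breakdown enzyme genes 0 passed in either library. Of the enkephalin-degrading enzymes, neprilysin (Mme) and aminopeptidase N (Anpep) had 0 UMIs in both, and Dpp3, an intracellular peptidase, had 1165 recipient UMIs and 1648 donor UMIs.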

How the data were processed

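The deposited matrices held raw UMI counts for each gene in each barcode. Cell Ranger, Seurat and the build mm10 are named in the submitters' processing notes, and software 3.0.2 is given per the file headers. Other upstream settings are not given in the sources used here. Symbols were matched to GENCODE M21 (GRCm38) for positions. Of 6174 recipient and 8588 donor barcodes, 555 and 587 were removed for having under 500 genes or over 10% of UMIs from mitochondrial genes, and then the highest doublet scores at 0.8% per 1000 barcodes (278 and 550). Both libraries were clustered together without Penk (scanpy 1.11.5, 2000 variable genes, 30 components, 15 neighbours, Leiden resolution 1), and clusters were named from marker lists, so the names are rebuilt and not those of the study.

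UMIs were summed per set of cells, and no test was run, since each group had 1 library. CPM intervals are exact Poisson, shares exact binomial (Clopper-Pearson), ratios exact for 2 Poisson sums, each at 95%, and what a count of 0 allows is 3 counts. Accompanying genes needed 20 UMIs and detection in 10% of either set of cells. Named were the 12 highest and 6 lowest genes in recipient Gzmk cells, the 6 highest and 4 lowest in donor Gzmk cells, the 6 highest over all recipient cells, the 6 genes most like Penk over clusters, the 3 leading V segments and examples from each list, leaving out receptor segments, ribosomal, mitochondrial and sex-linked genes and unnamed gene models. Genes in the comparison of Penk inside and outside the V segment pair were chosen after their values were seen. The ratio calculation was also run on simulated recipient Gzmk cells with independent Poisson counts. These lacked the clumping of UMIs in a few cells, so the run does not show how far clumping moves a ratio. The gene, lists and rules were chosen with earlier results of these data known. Alternatives covered filters, doublets, scaling (edgeR 4.0.16), thinning, V segment calls and clustering.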

Additional observations from a re-analysis of the deposited data

Results flagged for a closer look

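Penk was also found in barcodes outside the comparisons. Those left out by the filters held 22 Penk UMIs in the old recipient (15 in 11 barcodes called doublets, 7 in 3 others) and 8 in the young donor (6 in 6 doublets, 2 in 1 other), above the 3 counts that a count of 0 allows. Ulk2, an autophagy kinase gene, had log2 ratios of opposite sign for Penk cells over other Gzmk cells, -1.30 in the old recipient and 2.01 in the young donor. This difference was not tested. The recipient value is set by the 5 CPM added, since Penk cells with Gzmk had 0 UMIs there. The interval of the ratio reached 0.26, so no recipient direction could be read. The donor value rests on 4 UMIs in 2 Penk cells and was 0.62 without 1 of them.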

How the results depend on the processing

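The log2 ratio of Penk, 3.77, stayed between 3.61 and 3.93 over the 8 alternatives tried, which were 2 stricter cell filters, keeping doublets or all barcodes, TMM scaling (3.72), leaving out shared barcodes, and leaving out the top cell or the top 3 cells. No alternative reversed the direction of these results. The share of cells with Penk followed depth: in the recipient 0.60% and in the donor 0.0939% when thinned to 1000 UMIs, 1.74% and 0.349% without thinning, and 0.634% and 0.0283% for at least 2 Penk UMIs. With at least 3 Penk UMIs the donor share with Gzmk was 0, on 1 cell. The share of Penk UMIs in the leading Trbv segment was 43.5% in the recipient and 15.6% in the donor without the top cell, and 45.0% and 17.9% without the top 3 cells, and without its top cell the donor's leading segment was Trbv12-1. The ratio without the leading Trbv segments was 2.93 when Trav segments were left out instead, and 3.09 when the top 3 cells were removed first. The cluster with most Penk UMIs had 67.0 and 5.43 CPM in the recipient and donor at resolution 0.6, and 486 and 5.62 CPM at resolution 1.5, where cluster 18 led in the recipient and cluster 17 in the donor, and cluster 18 held 0 Penk UMIs in its 73 donor cells. Among genes with at least 100 UMIs, 6 of the 12 highest recipient genes and 0 of the 6 highest donor genes were left. Of the values of single genes under the alternatives, 69 stayed within the counting interval of the reported value and 21 moved beyond it. Leaving out the top 3 cells, the shared barcodes and the Penk cell with most UMIs of a gene was chosen after seeing the data. No paired analysis was possible because each group was 1 library. At 42 donor UMIs in 26 cells, differences among donor Penk cells were mostly not detectable.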
